A study of Mus musculus with 24 samples.

Results

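The transcripts of 9 cytokine receptor genes were followed in lymphoid progenitors (LPs) and in early T progenitors derived from them: *Il2ra*, *Il2rb*, *Il2rg*, *Il7r*, *Kit*, *Flt3*, *Il4ra*, *Il6ra* and *Il6st*. They were found by symbol among the 55487 genes listed in both experiments, and all 9 passed the filter on low values in each. The libraries came from Cas9-LP cells, a cell line made from fetal liver progenitors that lack functional *Ebf1* and carry a Rosa26-Cas9 knock-in, so every group shared the *Ebf1* deficiency and Cas9. The cells were grown on mitomycin C-treated OP9 stroma with mouse SCF, human Flt3L and human IL-7, each at 10 ng/ml, which are the ligands of Kit, Flt3 and the IL-7 receptor. In the first experiment (Exp1), LPs on OP9 and Phase 1 cells, which had 2 days of Notch stimulation on OP9-DLL4, carried guide RNAs to luciferase (sgCont) or to *Cbfb* (sgCbfb). In the second (Exp2), LPs carried sgCont, sgCbfb, sgCTCF or sgMed12. Each of these 8 groups had 3 libraries of sorted hNGFR+CD45+ cells, taken 5 days after transduction. The labels name no gate on CD25 or Kit for these sorts. For each of *Cbfb*, *Ctcf* and *Med12* 3 guide vectors were pooled, so a library with these guides holds cells with different edits. For luciferase the study lists 2 guides. The labels do not say how many lines or clones the libraries came from.

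Cytokine receptors of this kind are built from shared chains. Il2ra (CD25) is the alpha chain that gives the IL-2 receptor its high affinity and is the surface marker by which DN2 thymocytes are told from DN1. Il2rb carries the IL-2 and IL-15 signal, and Il2rg, the common gamma chain, is shared by the receptors for IL-2, IL-4, IL-7, IL-9, IL-15 and IL-21. Il7r pairs with Il2rg, and its signal keeps early lymphoid progenitors alive. Kit and Flt3 are receptor tyrosine kinases of progenitors, and Flt3 is lost while Kit is high in early T progenitors. Il4ra pairs with Il2rg or Il13ra1, and Il6ra binds IL-6 and signals through Il6st (gp130), which other IL-6 family receptors also use. *Cbfb* encodes the partner that RUNX factors need for stable DNA binding, *Ctcf* an architectural DNA-binding protein and *Med12* a subunit of the Mediator kinase module.

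QuantSeq reads the 3′ end of each mRNA, so that values count transcripts. They are given in CPM, the reads of a gene scaled to the same total for every library. Exp1 libraries held 1363263 to 1743319 reads on genes and Exp2 libraries 3354483 to 4326782, so that 3 reads, the limit a count of 0 allows, were worth 1.72 to 2.20 CPM in Exp1 and 0.693 to 0.894 CPM in Exp2. *Cbfb* transcripts fell with sgCbfb from 86.5 to 40.2 CPM in Exp1 LPs and from 114 to 48.4 CPM in Exp2 (adjusted P = 0.00548 and 4.34e-06), and were 53.9 against 66.5 CPM in Phase 1 cells (adjusted P = 0.591). *Ctcf* was 306 CPM with sgCTCF against 391 (adjusted P = 0.021) and *Med12* 7.01 CPM with sgMed12 against 5.13 (adjusted P = 0.663). A 3′ tag need not cover the edited site, so these levels are no measure of editing. The 8 lymphoid progenitor markers were all detected in every group. The 12 stromal markers summed to at most 45.5 CPM in any library. *Col3a1* and *Dcn* had no read in any group, while *Pdgfrb* reached a mean of 15.1 CPM in Phase 1 sgCont cells. The median stromal sum was 9.44 CPM with sgCont and 3.44 with sgCbfb in Exp1 LPs, and 11.3 and 8.17 in Phase 1 cells. In Exp2 it was 7.06 with sgCont, 8.31 with sgCbfb, 19.5 with sgCTCF and 23.8 with sgMed12. The part of stromal RNA in the receptor differences was not tested. Phase 1 sgCont replicate 3 had the lowest scaling factor of the 24 libraries (0.920 by median of ratios). All receptor calls that use it were kept without it: for sgCont from LP to Phase 1 the differences were then 6.90 for *Il2ra*, 2.36 for *Kit*, -2.56 for *Flt3* and -1.11 for *Il6st*, and for sgCbfb in Phase 1 cells -1.72 for *Il2ra*, -2.27 for *Il2rb*, 1.09 for *Flt3* and 1.66 for *Il6st*.

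Promoter windows from 250 bases before to 50 after a RefSeq transcription start (GRCm38.p6) were found for 8 of the 9 genes, all but *Il2rb*. They were searched on both strands for the letters TGTGGT or TGCGGT, a form of the RUNX core motif, because Cbfb is the partner of RUNX factors. The motif was in the windows of *Il2ra*, *Flt3*, *Il7r* and *Il2rg*, 4 of the 8, and 22.4% of all windows of this length hold it. The RBPJ letters TGGGAA were in the windows of *Il2rg* and *Il6ra*, against 25.6% of all windows. *Kit*, *Il4ra*, *Il6ra* and *Il6st* had no RUNX match, and of these *Kit*, *Il6ra* and *Il6st* were called with sgCbfb in some comparison with sgCont. Of the 4 genes with a match, *Il2ra* and *Flt3* were called in some such comparison and *Il7r* and *Il2rg* were not. The stretches from 250 bases before to 30 after the start are shown for the 4 genes with a RUNX match and for *Kit*. The match is in capitals (ACCGCA is TGCGGT on the other strand).
*Il2ra* (chr2:11642542-11642821, plus strand): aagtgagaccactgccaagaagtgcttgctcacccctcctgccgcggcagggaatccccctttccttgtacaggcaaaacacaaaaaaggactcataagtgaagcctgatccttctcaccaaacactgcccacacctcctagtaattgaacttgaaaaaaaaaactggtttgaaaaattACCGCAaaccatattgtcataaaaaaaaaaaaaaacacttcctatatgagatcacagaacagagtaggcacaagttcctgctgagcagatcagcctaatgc
*Flt3* (chr5:147400460-147400739, minus strand): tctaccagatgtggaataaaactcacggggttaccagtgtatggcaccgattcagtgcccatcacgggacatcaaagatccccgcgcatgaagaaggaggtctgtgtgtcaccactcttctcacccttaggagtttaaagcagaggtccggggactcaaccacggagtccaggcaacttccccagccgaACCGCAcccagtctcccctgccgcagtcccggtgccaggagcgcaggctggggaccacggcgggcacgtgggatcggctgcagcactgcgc
*Kit* (chr5:75574737-75575016, plus strand): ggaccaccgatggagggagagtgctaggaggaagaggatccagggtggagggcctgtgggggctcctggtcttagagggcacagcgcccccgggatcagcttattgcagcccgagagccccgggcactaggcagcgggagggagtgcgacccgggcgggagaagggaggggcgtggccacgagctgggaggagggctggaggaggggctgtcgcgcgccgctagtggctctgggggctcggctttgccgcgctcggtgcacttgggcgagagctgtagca
*Il7r* (chr15:9529847-9530126, minus strand): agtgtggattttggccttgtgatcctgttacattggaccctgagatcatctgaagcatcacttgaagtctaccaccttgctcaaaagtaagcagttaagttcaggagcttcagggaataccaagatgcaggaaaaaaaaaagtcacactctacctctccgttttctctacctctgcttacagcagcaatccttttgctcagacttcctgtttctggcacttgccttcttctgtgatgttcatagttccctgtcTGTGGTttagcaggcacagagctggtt
*Il2rg* (chrX:101268226-101268505, minus strand): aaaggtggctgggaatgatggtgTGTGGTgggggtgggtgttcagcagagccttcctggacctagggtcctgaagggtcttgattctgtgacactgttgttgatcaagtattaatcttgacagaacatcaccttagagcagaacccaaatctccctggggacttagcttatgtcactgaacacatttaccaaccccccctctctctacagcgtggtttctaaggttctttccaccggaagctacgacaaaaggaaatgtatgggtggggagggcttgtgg
The match started at position -71 from the start in *Il2ra*, -61 in *Flt3*, -227 in *Il2rg* and 4 in *Il7r*, counting the first transcribed base as 1. The whole *Il7r* window lies inside the gene coordinates given below, which come from GENCODE. In that annotation the gene starts upstream of this window. A match of letters is a description of these windows and not a measured binding site.

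A gene was called when its limma adjusted P was under 0.05 over all genes tested, the ratio of its group means was over 2 and its mean was over 10 CPM in either group. Differences below are on the log2(CPM + 1) scale, and errors are SD over 3 libraries. Since the fold threshold was applied to CPM means, a gene near it can be called at a log2(CPM + 1) difference just under 1, or missed just over it. With sgCbfb in Exp1 LPs, 3 of the 9 receptors were called, *Il2ra* and *Kit* higher and *Il2rb* lower, where 1.69% of the 13239 genes tested were called. In Phase 1 cells 4 were called with sgCbfb, *Flt3* and *Il6st* higher and *Il2ra* and *Il2rb* lower, against 3.52% of all genes. From LP to Phase 1, 4 were called in sgCont cells (3.39% of all genes), *Il2ra* and *Kit* higher and *Flt3* and *Il6st* lower, and 2 in sgCbfb cells (1.19%), *Il2ra* higher and *Flt3* lower. In Exp2, 4 were called with sgCbfb (4.33% of 13177 genes), *Il2ra*, *Il6ra* and *Il6st* higher and *Il2rb* lower. None was called with sgCTCF (2.43%), where edgeR and DESeq2 also called 0. There 4 receptors, *Kit*, *Flt3*, *Il2rb* and *Il2rg*, had a limma adjusted P under 0.05 but missed the fold threshold. With *Il7r* added, 5 had an unadjusted P under 0.05. With sgMed12 1 was called (1.03%), *Il2rb*, lower. Comparisons of one experiment share libraries, and the 2 tables were normalized separately, so tests were run within an experiment.

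**Figure D1:**
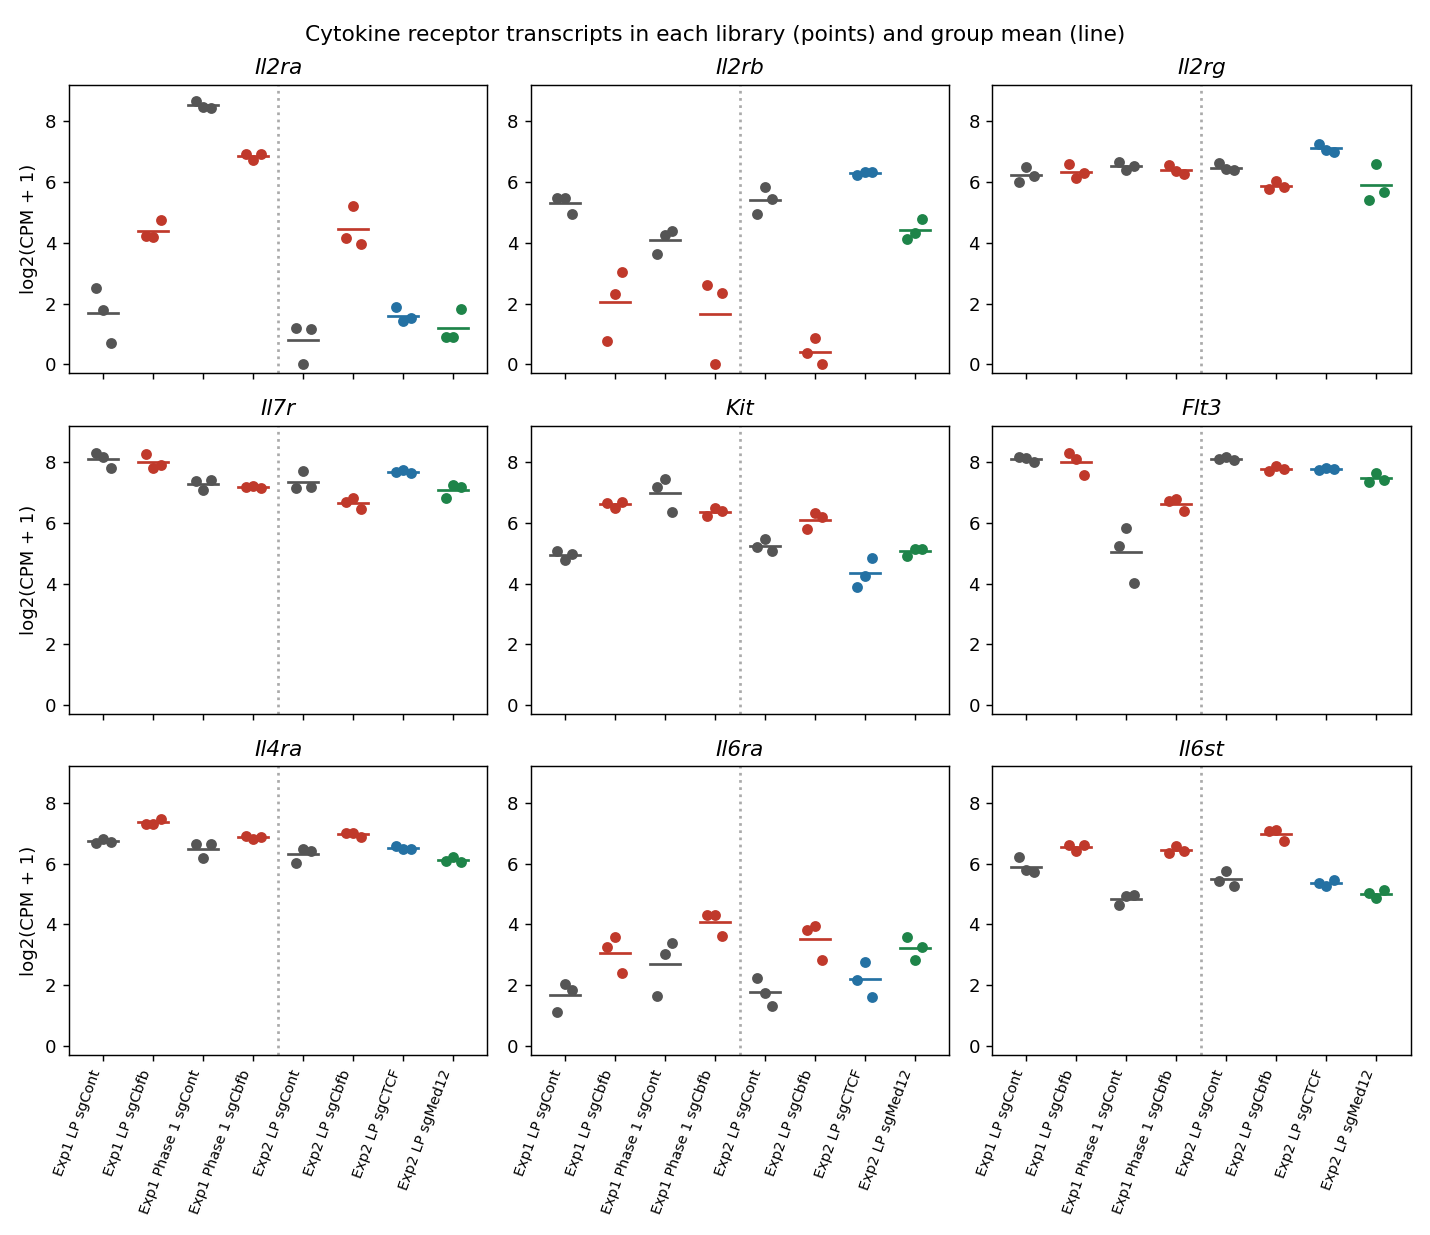
Level of each receptor transcript, as log2(CPM + 1), in the 24 libraries by group; points are libraries, lines group means, and the dotted line separates Exp1 from Exp2. *Il2ra* is highest in Phase 1 sgCont cells, and *Il2rb* is lowest in the 3 sgCbfb groups.

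*Il2ra* (ENSMUSG00000026770, chr2:11642807-11693193, plus strand), the chain that marks DN2 cells, was nearly silent in control LPs and was the receptor that Notch stimulation raised most. In Exp1 it was at 4.72, 2.48 and 0.642 CPM in the sgCont LPs and at 410.1, 355 and 348 CPM in the sgCont Phase 1 libraries, a log2 difference of 6.86 (95% interval 6.21 to 7.52, adjusted P = 1.71e-12). All Phase 1 libraries lay far above all LP libraries. In bulk RNA, more cells that express a gene and more RNA per cell cannot be told apart. With sgCbfb the LP libraries were at 17.6, 17.2 and 25.7 CPM, 7.72-fold above sgCont by the group means, and the Phase 1 libraries at 121, 106 and 119.6 CPM, 3.22-fold below. The groups did not overlap at either stage, and the direction turned between them: the difference was 2.71 (95% interval 2.05 to 3.36, adjusted P = 1.05e-05) in LPs and -1.68 (95% interval -2.33 to -1.02, adjusted P = 0.0015) in Phase 1 cells, the latter at an adjusted P of 0.0608 without moderated variances (7.9e-23 to 0.0608 over all alternatives). The stage change itself was 2.48 with sgCbfb (adjusted P = 4.17e-05), so that *Il2ra* also rose in sgCbfb cells, from a higher start to a lower end.

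The rise of *Il2ra* in sgCbfb LPs was also present in the second experiment. There it was at 1.32, 0 and 1.22 CPM in sgCont and 17.0, 35.9 and 14.6 CPM in sgCbfb LPs, with no overlap (difference 3.66, 95% interval 2.84 to 4.48, adjusted P = 1.8e-07). These sgCont counts were 5, 0 and 5 reads, so the ratio of means, 26.6, rests on few reads. The sgCTCF libraries held 2.68, 1.67 and 1.85 CPM and the sgMed12 libraries 0.847, 0.871 and 2.55 CPM. All of these lay below every sgCbfb library, and their differences from sgCont did not pass the test (sgCTCF 0.82, 95% interval -0.01 to 1.64, adjusted P = 0.224, and sgMed12 0.42, 95% interval -0.40 to 1.24, adjusted P = 0.569). Against sgCbfb, *Il2ra* was lower in both, with differences of -2.84 for sgCTCF and -3.24 for sgMed12 (adjusted P = 5.54e-06 and 1.32e-06).

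*Il2rb* (ENSMUSG00000068227, chr15:78479256-78495271, minus strand), the signalling beta chain, moved opposite to *Il2ra* in LPs. Its sgCont libraries were at 43.1, 44.0 and 30.2 CPM in Exp1 LPs and its sgCbfb libraries at 0.705, 4.01 and 7.14 CPM, a difference of -3.27 (95% interval -4.56 to -1.97, adjusted P = 0.00287). With a pseudocount of 0.1 or without moderated variances this call was lost (adjusted P = 0.1 and 0.103, 3.97e-07 to 0.103 over all alternatives). In Phase 1 cells the sgCont libraries were at 11.3, 18.1 and 19.8 CPM and the sgCbfb libraries at 5.19, 0 and 4.12 CPM. The groups did not overlap, and the difference was -2.42 (95% interval -3.72 to -1.13, adjusted P = 0.0197); the adjusted P ran from 0.0107 to 0.141 with single libraries left out and was over 0.05 without sgCbfb replicate 2 or sgCont replicate 2. The call was also lost with a pseudocount of 0.1, with only the groups compared and without moderated variances (adjusted P = 0.0767, 0.0632 and 0.162), and where a mean over 20 CPM was asked for. From LP to Phase 1 *Il2rb* differed by -1.22 (95% interval -2.52 to 0.07, adjusted P = 0.287) in sgCont cells, whose libraries did not overlap, and by -0.38 (95% interval -1.67 to 0.92, adjusted P = 0.889) in sgCbfb cells, whose libraries did.

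In Exp2 the loss of *Il2rb* with sgCbfb was close to complete. The sgCont LPs held 30.1, 55.8 and 42.1 CPM, and the sgCbfb LPs 0.298, 0.804 and 0 CPM, which were 1, 3 and 0 reads. Against the floor of 3 reads per library, *Il2rb* was at least 52.2-fold lower with sgCbfb (adjusted P = 1.08e-13). The sgCTCF libraries, at 73.5, 79.4 and 78.8 CPM, all lay above the sgCont libraries, and the sgMed12 libraries, at 16.4, 19.2 and 26.7 CPM, all lay below them. The difference from sgCont was 0.88 (95% interval 0.37 to 1.40, adjusted P = 0.0221) with sgCTCF, under the fold threshold except without sgCont replicate 2 (1.09), and -0.99 (95% interval -1.50 to -0.47, adjusted P = 0.02) with sgMed12. The sgMed12 call was lost without sgCont replicate 2 or 3 or sgMed12 replicate 1 or 2 (adjusted P 0.011 to 0.122 with single libraries left out). Between guide pools the order was sgCTCF, sgCont, sgMed12 and sgCbfb, with no overlap between neighbours, and sgMed12 against sgCTCF differed by -1.87 (95% interval -2.39 to -1.36, adjusted P = 9.83e-06).

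*Il2rg* (ENSMUSG00000031304, chrX:101264378-101268255, minus strand), the common gamma chain, was present in every library and did not pass the test in any comparison of Exp1. Its exons share 728 bases with those of *Gm20489*, which had no read in any library. Its group means there were between 74.3 and 91.5 CPM, and the difference with sgCbfb was 0.13 (95% interval -0.25 to 0.50, adjusted P = 0.888) in LPs and -0.12 (95% interval -0.50 to 0.25, adjusted P = 0.789) in Phase 1 cells. In Exp2 the sgCont LPs held 97.1, 84.5 and 84.0 CPM, the sgCbfb LPs 53.7, 64.6 and 55.9 CPM and the sgCTCF LPs 152, 134 and 128 CPM. Neither overlapped the sgCont libraries, with differences of -0.60 and 0.63 (adjusted P = 0.0344 and 0.0299) that were under the fold threshold. With sgMed12 the libraries held 41.8, 96.2 and 50.5 CPM, and replicate 2 stood above the other two. *Il2rg* was called between sgCTCF and sgCbfb (difference 1.23, 95% interval 0.85 to 1.62, adjusted P = 1.79e-05) and, lower, between sgMed12 and sgCTCF (-1.21, 95% interval -1.60 to -0.82, adjusted P = 6.95e-05), the latter under the fold threshold without sgMed12 replicate 1 or 3, at log2 differences of -0.97 and -1.10.

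*Il7r* (ENSMUSG00000003882, chr15:9505788-9530176, minus strand), the receptor for the IL-7 in the medium, was lower after Notch stimulation with both guide pools. The sgCont libraries went from 313, 287 and 225 CPM in LPs to 164, 136 and 169 CPM in Phase 1, and the sgCbfb libraries from 306, 224 and 237 to 146, 149 and 141 CPM. The stages did not overlap with either pool, and the stage differences, -0.80 and -0.80 (adjusted P = 0.00124 and 0.00275), were under the fold threshold. The sgCbfb difference was -0.10 (95% interval -0.41 to 0.21, adjusted P = 0.888) in LPs and -0.10 (95% interval -0.41 to 0.21, adjusted P = 0.801) in Phase 1 cells. The change of this difference between the stages had a 95% interval of -0.44 to 0.44. In Exp2, *Il7r* was at 142, 207 and 145 CPM in sgCont, 103, 112 and 87.4 in sgCbfb, 202, 215 and 197 in sgCTCF and 111, 153 and 146 in sgMed12 LPs. The sgCbfb difference from sgCont was -0.69 (95% interval -0.98 to -0.41, adjusted P = 0.000825) there, under the fold threshold, while in Exp1 LPs it did not pass the test. The difference between the experiments was not tested. The sgCbfb libraries lay below all sgCont and sgCTCF libraries and overlapped the sgMed12 libraries, and *Il7r* was called between sgCTCF and sgCbfb (1.02, 95% interval 0.74 to 1.31, adjusted P = 3.43e-06), though it fell under the fold threshold without sgCTCF replicate 2 or sgCbfb replicate 3 (0.99 and 0.93).

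*Kit* (ENSMUSG00000005672, chr5:75574916-75656722, plus strand), the SCF receptor that is high in early T progenitors, rose with Notch stimulation in sgCont cells and did not pass the test in sgCbfb cells. The sgCont LPs held 33.1, 26.6 and 30.8 CPM and the sgCont Phase 1 libraries 145, 172 and 80.7 CPM, a difference of 2.04 (95% interval 1.58 to 2.49, adjusted P = 1.3e-06). The sgCbfb LPs were already at 101, 88.3 and 102 CPM, and the sgCbfb Phase 1 libraries at 73.9, 89.2 and 83.1 CPM (stage difference -0.24, 95% interval -0.70 to 0.21, adjusted P = 0.754). In LPs the pools did not overlap and differed by 1.66 (95% interval 1.20 to 2.11, adjusted P = 5e-05), while in Phase 1 cells they overlapped (difference -0.62, 95% interval -1.08 to -0.17, adjusted P = 0.11). Without Phase 1 sgCont replicate 3, the lowest of its group, the Phase 1 difference was -0.94 (adjusted P = 0.000396, 0.000396 to 0.368 over all alternatives), still under the fold threshold. Of the mast cell and basophil markers, *Cpa3* rose with *Kit* in sgCont cells, from 0.619 to 66.5 CPM, while *Mcpt8*, *Fcer1a*, *Gata2* and *Ms4a2* had no read in either group.

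In Exp2 LPs, *Kit* was at 35.6, 43.1 and 32.9 CPM with sgCont, 54.3, 79.4 and 72.0 CPM with sgCbfb, 14.0, 18.1 and 28.0 CPM with sgCTCF and 29.4, 34.3 and 34.6 CPM with sgMed12. The sgCbfb libraries lay above and the sgCTCF libraries below all sgCont libraries, and the sgMed12 libraries overlapped them. The difference from sgCont was 0.86 (95% interval 0.45 to 1.26, adjusted P = 0.00362) with sgCbfb and -0.91 (95% interval -1.32 to -0.50, adjusted P = 0.00323) with sgCTCF, both under the fold threshold. *Kit* passed it with sgCbfb when sgCbfb replicate 1 or sgCont replicate 2 was left out (1.01 and 0.96), and with sgCTCF without sgCTCF replicate 3 (-1.17). Between the pools it was lower with sgCTCF than with sgCbfb (-1.76, 95% interval -2.17 to -1.36, adjusted P = 1.88e-07) and lower with sgMed12 than with sgCbfb (-1.03, 95% interval -1.44 to -0.62, adjusted P = 0.000521), the latter under the fold threshold without sgCbfb replicate 2 or sgMed12 replicate 1 (-0.92 and -0.95). Between sgMed12 and sgCTCF it was 0.74 and not called, but passed the fold threshold without sgCTCF replicate 3 (0.99).

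*Flt3* (ENSMUSG00000042817, chr5:147330741-147400489, minus strand), the Flt3L receptor of multipotent and lymphoid progenitors, fell with Notch stimulation. The sgCont libraries went from 284, 279 and 255 CPM to 36.7, 56.1 and 15.4 CPM, and the sgCbfb libraries from 318, 272 and 191 CPM to 104, 109 and 82.5 CPM. The stages did not overlap with either pool, and the stage difference was -3.06 (95% interval -3.65 to -2.46, adjusted P = 1.62e-07) with sgCont and -1.37 (95% interval -1.97 to -0.78, adjusted P = 0.00805) with sgCbfb; the second call was lost when LP sgCbfb replicate 1 or Phase 1 sgCbfb replicate 3 was left out (adjusted P 2.3e-09 to 0.0862 with single libraries left out) or the variances were not moderated (0.216). In LPs sgCbfb and sgCont libraries overlapped (-0.10, 95% interval -0.69 to 0.50, adjusted P = 0.958), and in Phase 1 cells every sgCbfb library lay above every sgCont library (1.59, 95% interval 0.99 to 2.19, adjusted P = 0.000978). Phase 1 sgCont replicate 3 was the lowest of all, and without it the Phase 1 difference was 1.09 (adjusted P = 5.71e-06, 2.31e-06 to 0.0841 over all alternatives). In Exp2 LPs all 3 targeted pools had lower values than sgCont, at 209.6, 232 and 218 CPM with sgCbfb, 213, 221 and 216 with sgCTCF and 164, 197 and 169 with sgMed12 against 273, 289 and 266 CPM. None overlapped sgCont, and the differences, -0.33, -0.35 and -0.65 (adjusted P = 0.0265, 0.0214 and 0.000396), were under the fold threshold.

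**Figure D2:**
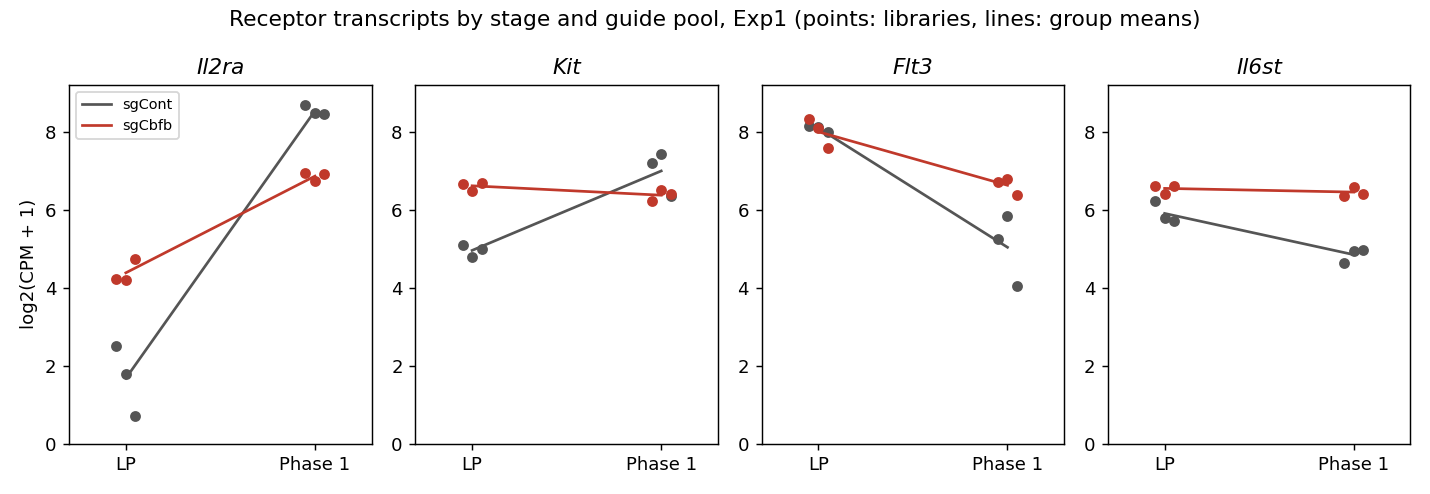
*Il2ra*, *Kit*, *Flt3* and *Il6st* as log2(CPM + 1) in LPs and Phase 1 cells of Exp1, with sgCont in grey and sgCbfb in red; points are libraries and lines join group means. The lines cross for *Il2ra* and *Kit*. They also cross for *Flt3*, close to the LP end, where sgCbfb is at -0.10 from sgCont. For *Il6st* the sgCbfb line is above at both stages and the lines diverge.

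The change of the sgCbfb difference from LP to Phase 1 was tested as an interaction, and 3 of the 9 receptors were called, against 1.19% of all genes, where a call needed an adjusted P under 0.05 and 1 group mean above 10 CPM. It was -4.38 (95% interval -5.31 to -3.45, adjusted P = 7.72e-06) for *Il2ra* and -2.28 (95% interval -2.92 to -1.64, adjusted P = 0.000207) for *Kit*, both called with each of the 12 libraries left out. For *Flt3* it was 1.69 (95% interval 0.84 to 2.53, adjusted P = 0.0407), and the call was lost in 8 of the 12 omissions (adjusted P 0.000807 to 0.167), namely without any one LP sgCont or Phase 1 sgCbfb library or without LP sgCbfb replicate 2 or 3. The *Flt3* call was also lost with a pseudocount of 0.1, without the filter on low values and without moderated variances (adjusted P = 0.0845, 0.0807 and 0.358). For *Il6st* it was 0.96 (95% interval 0.40 to 1.53, adjusted P = 0.101) and not called, except without Phase 1 sgCont replicate 3 (1.02, adjusted P = 0.0334, 0.0334 to 0.272 over all alternatives).

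**Figure D3:**
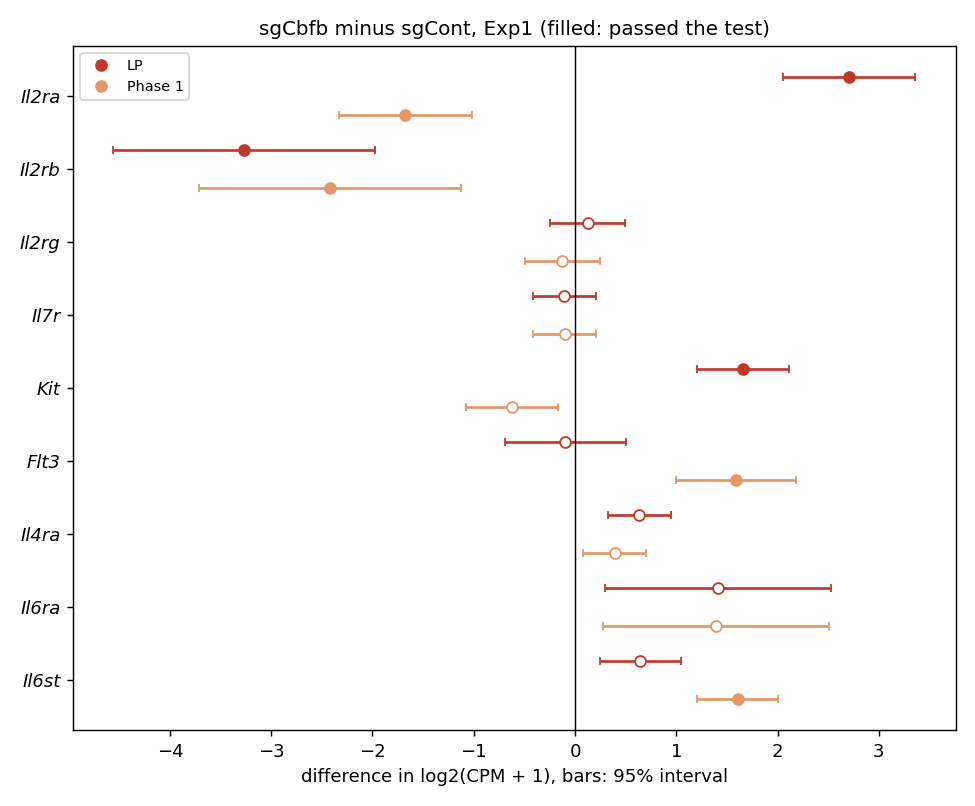
Difference between sgCbfb and sgCont in log2(CPM + 1) for the 9 receptors in LPs (red) and Phase 1 cells (orange) of Exp1, with 95% intervals from limma; filled points passed the test. *Il2ra* is at 2.71 in LPs and -1.68 in Phase 1 cells, and *Il2rb* is below 0 at both stages.

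*Il4ra* (ENSMUSG00000030748, chr7:125552120-125579474, plus strand), the IL-4 and IL-13 receptor chain, was higher with sgCbfb in LPs of both experiments by an amount under the fold threshold. Exp1 LPs held 102, 110.2 and 104 CPM with sgCont and 159, 158 and 175 CPM with sgCbfb, and Exp2 LPs 63.6, 88.3 and 85.2 CPM with sgCont and 128, 127 and 117 CPM with sgCbfb. The pools did not overlap in either experiment, and the difference was 0.63 (95% interval 0.32 to 0.95, adjusted P = 0.0191) in Exp1 and 0.65 (95% interval 0.40 to 0.91, adjusted P = 0.000486) in Exp2. In Phase 1 cells the means were 89.8 ± 15.2 CPM with sgCont and 117 ± 4.13 CPM with sgCbfb (adjusted P = 0.153). With sgCTCF and sgMed12 they were 90.5 ± 3.69 and 68.6 ± 4.02 CPM (adjusted P against sgCont = 0.349 and 0.382).

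*Il6st* (ENSMUSG00000021756, chr13:112464070-112510086, plus strand), the gp130 signal transducer, had a higher mean with sgCbfb than with sgCont in all 3 comparisons and was called in 2 of them. In Exp1 LPs the sgCont libraries held 73.8, 53.9 and 51.4 CPM and the sgCbfb libraries 97.3, 83.7 and 97.1 CPM (0.64, 95% interval 0.24 to 1.04, adjusted P = 0.0845). In Phase 1 cells they held 24, 29.7 and 30.1 and 81.0, 95.5 and 83.7 CPM (1.60, 95% interval 1.21 to 2.005, adjusted P = 8.67e-06). In sgCont cells *Il6st* fell from LP to Phase 1 (-1.06, 95% interval -1.46 to -0.66, adjusted P = 0.000946), under the fold threshold without LP or Phase 1 sgCont replicate 1 (-0.90 and -0.96), and in sgCbfb cells the stage difference was -0.10 (95% interval -0.49 to 0.30, adjusted P = 0.916). In Exp2 LPs the values were 42.5, 53.2 and 37.5 CPM with sgCont and 133, 136 and 106 CPM with sgCbfb (1.48, 95% interval 1.18 to 1.79, adjusted P = 3.82e-08). The sgCTCF and sgMed12 means were 40.3 ± 2.44 and 31.4 ± 2.69 CPM, with differences from sgCont of -0.12 (95% interval -0.43 to 0.18, adjusted P = 0.69) and -0.47 (95% interval -0.78 to -0.17, adjusted P = 0.0499), the second under the fold threshold.

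*Il6ra* (ENSMUSG00000027947, chr3:89864059-89913196, minus strand), the IL-6 binding chain, was a scarce transcript and was called in 2 comparisons, both in Exp2. It was at 3.69, 2.36 and 1.46 CPM with sgCont and 13.1, 14.5 and 6.05 CPM with sgCbfb in Exp2, which did not overlap (1.77, 95% interval 1.02 to 2.52, adjusted P = 0.00109). The mean with sgCbfb was just over the limit of 10 CPM, and without sgCbfb replicate 2 it was under it, which ended the call, as did a limit of 20 CPM. In Exp1 the means with sgCont and sgCbfb were 2.28 ± 0.989 and 7.88 ± 3.35 CPM in LPs and 6.25 ± 3.78 and 16.3 ± 4.41 CPM in Phase 1 cells (adjusted P = 0.235 and 0.156). With sgMed12 it was at 11.02, 6.10 and 8.52 CPM, above all sgCont libraries (1.46, 95% interval 0.71 to 2.21, adjusted P = 0.0187) but with a mean under 10 CPM, and with sgCTCF at 3.49, 5.85 and 2.08 CPM (0.43, 95% interval -0.32 to 1.18, adjusted P = 0.545).

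**Figure D4:**
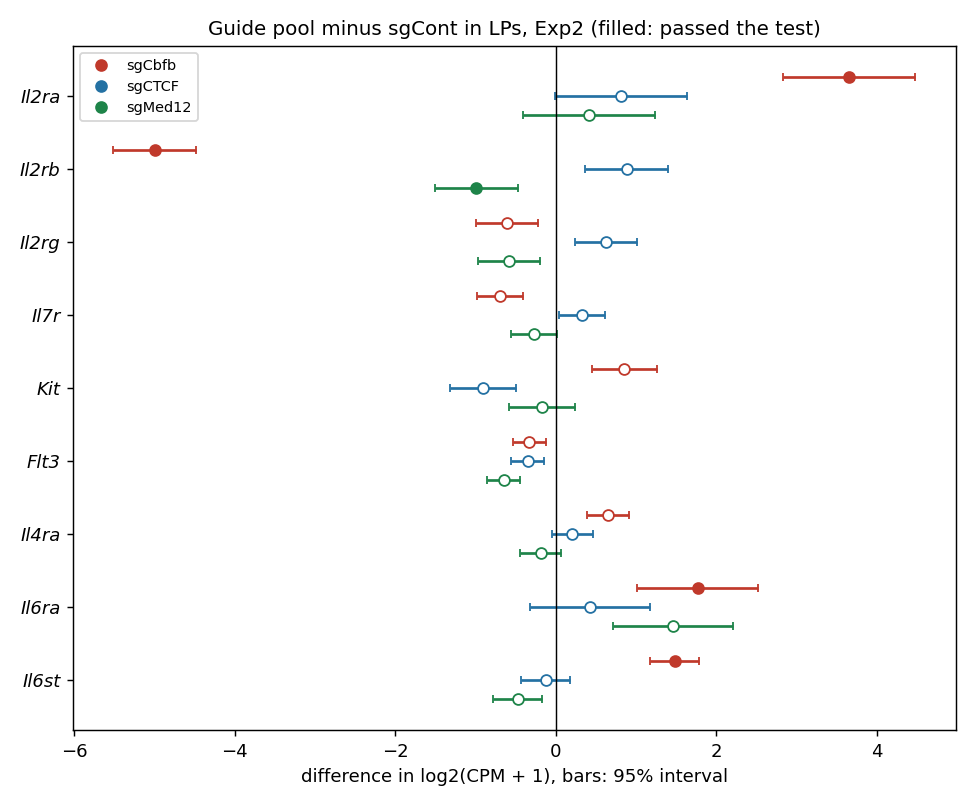
Difference of each guide pool from sgCont in log2(CPM + 1) for the 9 receptors in Exp2 LPs, with 95% intervals from limma; filled points passed the test, and the 3 pools share the sgCont libraries. With sgCbfb *Il2ra* is at 3.66 and *Il2rb* at -5.00, and with sgCTCF *Il2rb* is at 0.88 and *Kit* at -0.91.

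Set against each other, the guide pools of Exp2 separated these receptors most between sgCTCF and sgCbfb. With sgCTCF 7 of the 9 were called, *Il2rb*, *Il2rg* and *Il7r* higher and *Il2ra*, *Kit*, *Il6ra* and *Il6st* lower than with sgCbfb, where 6.87% of all genes were called. *Il2rb* was at least 94.4-fold higher with sgCTCF. *Il6ra* was called at -1.34 (95% interval -2.09 to -0.59, adjusted P = 0.00819) and was lost without sgCTCF replicate 3 or sgCbfb replicate 2 (adjusted P 0.00233 to 0.0651 with single libraries left out), without moderated variances (0.0667) and at a mean over 20 CPM. Between sgMed12 and sgCbfb 4 were called (4.48% of all genes), *Il2rb* higher, by at least 25.4-fold, and *Il2ra*, *Kit* and *Il6st* lower with sgMed12. Between sgMed12 and sgCTCF 2 were called (4.01%), *Il2rb* and *Il2rg*, both lower with sgMed12. *Kit* was also called between sgMed12 and sgCTCF without sgCTCF replicate 3, as given above.

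Among 41 other cytokine receptor genes, 29 were tested in Exp1 and 30 in Exp2. With sgCbfb 2 were called higher and 1 lower in Exp1 LPs, where 1.69% of all genes were called (median log2 difference -0.16, 0.00 over all genes). In Phase 1 cells 3 were called higher and 3 lower, against 3.52% of all genes (medians 0.04 and 0.06). In Exp2 LPs 2 were called higher and 3 lower, against 4.33% of all genes (medians 0.10 and -0.01). *Csf2rb2* and *Csf2rb*, both beta chains of IL-3 receptors, rose in each: in Exp1 LPs *Csf2rb2* went from 2.71 to 28.4 CPM (log2 difference 3.08, adjusted P = 0.00103) and *Csf2rb* from 35.1 to 106 CPM (log2 difference 1.62, adjusted P = 0.000231). These 2 genes are near-identical copies, and how shared reads were assigned is not given in the sources used here. *Il18r1*, an IL-18 receptor chain, fell in each, from 86.5 to 18.1 CPM (log2 difference -2.33, adjusted P = 0.000126) in Exp1 LPs and 73.5 to 5.35 CPM (log2 difference -3.53, adjusted P = 1.08e-13) in Exp2 LPs. *Lifr*, which signals with Il6st, fell with sgCbfb in Exp2 from 25.9 to 1.304 CPM (log2 difference -3.58, adjusted P = 2.89e-09), and *Il17rb* was lower with sgCbfb in Phase 1 cells, from 17.0 to 0.844 CPM (log2 difference -3.32, adjusted P = 0.00218). With sgCTCF 2 were called, both higher, where 2.43% of all genes were called. They were *Tgfbr2* and *Ifngr2*, the TGF-beta and interferon-gamma receptor chains, which went from 8.99 to 20.3 CPM (log2 difference 1.10, adjusted P = 0.00402) and 14.1 to 29.7 CPM (log2 difference 1.04, adjusted P = 0.000891).

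From LP to Phase 1 in sgCont cells, 3 of these 29 receptors were called higher and 3 lower, against 3.39% of all genes (median -0.15, -0.07 over all genes). In sgCbfb cells *Tgfbr1* alone was called, higher, by limma, against 1.19% of all genes. The genes named next are from sgCont cells. *Il12rb2* and *Il12rb1*, the IL-12 receptor chains, rose from 6.75 to 53.5 CPM (log2 difference 2.82, adjusted P = 1.66e-05) and 2.63 to 11.2 CPM (log2 difference 1.88, adjusted P = 0.0294), and *Il17rb* from 1.498 to 17.0 CPM (log2 difference 3.26, adjusted P = 0.00249). *Il1rap*, the IL-1 receptor accessory chain, fell from 14.2 to 1.82 CPM (log2 difference -2.40, adjusted P = 0.0141).

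Of the 11 JAK and STAT genes, limma called none in Exp1. The medians of the list with sgCbfb and sgCTCF in Exp2 were 0.09 and 0.23 (all genes -0.01 and -0.02). Of 19 genes that cytokine signals through STATs are known to induce, *Cish*, a feedback inhibitor of STAT5, rose with sgCbfb in all 3 comparisons, from 49.3 to 167 CPM (log2 difference 1.81, adjusted P = 3.34e-05) in Exp1 LPs, 40.8 to 119.7 CPM (log2 difference 1.53, adjusted P = 0.000136) in Phase 1 cells and 48.3 to 169.6 CPM (log2 difference 1.80, adjusted P = 1.06e-09) in Exp2 LPs. *Socs2*, a feedback inhibitor of cytokine and growth hormone receptors, fell from LP to Phase 1 in sgCont cells from 2214 to 559 CPM (log2 difference -1.98, adjusted P = 1.71e-12) and was higher with sgCbfb in Phase 1 cells, 1668, 1558 and 1555 against 589, 546 and 541 CPM, with an interaction of 1.28 (adjusted P = 7.72e-06). *Pim2*, a survival kinase, was lower with sgCbfb in the LPs of both experiments, from 80.4 to 12.1 CPM (log2 difference -2.75, adjusted P = 0.000915) and 79.0 to 6.14 CPM (log2 difference -3.49, adjusted P = 1.29e-13), and with sgMed12 from 79.0 to 32.2 CPM (log2 difference -1.26, adjusted P = 0.000149). It also fell from LP to Phase 1 in sgCont cells, from 80.4 to 5.92 CPM (log2 difference -3.67, adjusted P = 1.29e-05). *Socs3*, another gene of this list, was lower with sgCbfb in Exp2 LPs, 7.15 against 17.3 CPM (log2 difference -1.12, adjusted P = 0.0083). Of 11 genes for the ligands of these receptors, 2 were abundant enough to be tested, and neither was called by limma in any of the 11 comparisons.

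Markers of other cell types moved with some of these results. The 10 myeloid markers summed to 68.1 to 96.2 CPM in Exp1 sgCont LPs and 417 to 444 CPM in sgCbfb LPs, to 52.9 to 69.0 CPM and 384 to 398 CPM in Phase 1 cells, and to 72.5 to 80.3 CPM and 765 to 944 CPM in Exp2 LPs. *Mrc1* gave the largest share of the sgCbfb sums, and *Elane* and *Cd14* had no read in any sgCbfb group. The 12 T-lineage markers summed to 1356 to 1529 CPM in sgCont Phase 1 cells and 337 to 355 CPM in sgCbfb Phase 1 cells. In LPs they summed to 421 to 482 CPM with sgCont and 293 to 353 CPM with sgCbfb in Exp1, and to 358 to 383 CPM and 163 to 194 CPM in Exp2, so that the sum was lower with sgCbfb where *Il2ra* was higher. In Exp1 LPs 2 of the 11 markers tested were called lower with sgCbfb and 1 higher, and the median log2 difference was 0.12. The 2 lower were the abundant *Bcl11b* (76.3 to 13.6 CPM) and *Lck* (121 to 34.1 CPM). In Exp2 LPs 3 of 8 were called lower and 1 higher, with a median of -1.33. Within this list *Rag1*, a recombinase gene also used by other lymphoid progenitors, had higher means with sgCbfb, 67.5 against 20.7 CPM in Exp1 LPs and 67.6 against 9.69 CPM in Exp2 LPs. With sgCTCF the myeloid markers summed to 169.6 to 192 CPM and with sgMed12 to 104 to 126 CPM. The part of these changes in the receptor differences was not tested.

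The genes whose pattern was most like each receptor were ranked by Pearson r of log2(CPM + 1) over the 24 libraries, centred within each experiment, among 8622 genes whose mean passed 10 CPM somewhere in each experiment. The libraries share their groups, and the values are descriptions. They were *Cotl1* (0.936), *Itgal* (0.889) and *Hbb-bt* (0.878) for *Il2ra*, *Ncf1* (0.947), *Jchain* (0.941) and *Ptprcap* (0.933) for *Il2rb*, *Myb* (0.848), *Frmd4a* (0.847) and *Nfe2* (0.843) for *Kit* and *Foxp1* (0.956), *Tnni1* (0.948) and *Kank2* (0.944) for *Flt3*. For *Il6st* they were *Dntt* (0.946), *Gm1966* (0.938) and *Dlk1* (0.931), and for *Il4ra* *Taok3* (0.891), *Dntt* (0.888) and *Gm1966* (0.885), so that *Dntt* and *Gm1966* stood on both lists. The remaining receptors had *Slc25a51* (0.893) and *Cdh13* (0.889) for *Il7r*, *Cltc* (0.845), *Clta* (0.841) and *Midn* (0.834) for *Il2rg* and *Egr1* (0.835), *Tgfb1* (0.822) and *Icosl* (0.784) for *Il6ra*. Between members, r was highest for *Il4ra* with *Il6st* (0.817) and *Il2ra* with *Kit* (0.750), and lowest for *Il2ra* with *Flt3* (-0.743).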

How the data were processed

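RNA of 24 Cas9-LP libraries in 8 groups of 3 was read with QuantSeq 3′ FWD. Per the labels, the authors used fastp and STAR with mm10. The counter, its strand setting and the annotation are not given in the sources used here. The deposited values are named TPM by the authors but are CPM, read counts scaled to a common total, 1 table per experiment. Multiplied by the depth, 100.0% of values gave whole reads (tolerance 0.0011 CPM). One line of 1 read without a gene was left out, as was a column of the authors' means. Genes that reached 1 CPM in 3 or more libraries entered limma 3.58.1 as log2(CPM + 1) (R 4.3.3; trended, moderated variances, 4 groups in 1 fit per experiment), Benjamini-Hochberg adjusted over all genes. Tests were checked on simulated data. An exact permutation test of 3 against 3 libraries cannot go below P = 0.1 and was not used. The study's methods call the replicates biologically independent. Intervals are limma's, and floors (3 reads) cover counting error only. Alternatives were edgeR 4.0.16 and DESeq2 1.42.0 on recovered reads, other pseudocounts, filters, scalings, variances and thresholds, a replicate block, and each library left out. Scaling of the levels was added after the data were seen. Promoters came from RefSeq (GRCm38.p6) and gene coordinates from GENCODE M21 (GRCm38). The receptors and gene lists were chosen with earlier results of these data known. The genes named beside the 9 receptors were up to 4 called genes per list with the largest differences in a comparison, and the 3 most alike in pattern. Marker genes, and *Csf2rb* in Phase 1 cells, were named after their values were seen. Some genes that this rule names are not reported here.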

Additional observations from a re-analysis of the deposited data

Results flagged for a closer look

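For 3 receptors the sgCbfb effect differed between LP and Phase 1 cells by a test of that difference itself, limma's interaction term. For *Il2ra* the change from the LP to the Phase 1 difference was -4.38 on the log2 scale (adjusted P = 7.72e-06), with every sgCbfb library above every sgCont library in LPs and below them all in Phase 1 cells. For *Kit* it was -2.28 (adjusted P = 0.000207), with sgCbfb above sgCont in all LP libraries and overlapping values in Phase 1 cells. For *Flt3* it was 1.69 (adjusted P = 0.0407), with overlapping values in LPs and all 3 sgCbfb libraries above sgCont in Phase 1 cells. This *Flt3* call was lost in 8 of 12 omissions of a single library and under 3 other settings (adjusted P 0.000807 to 0.358 over all alternatives). Without Phase 1 sgCont replicate 3, which had the lowest *Flt3* and *Kit* values of its group, the changes were -4.42, -2.60 and 1.19.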

How the results depend on the processing

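No call of a receptor turned direction in any alternative, and of 99 receptor results, 34 called, 8 reversed sign somewhere without being called. None of 72 group levels moved by over 1 SD under another scaling. The number of receptors called with sgMed12 against sgCont was 0 with a pseudocount of 0.1, without a filter, with median-of-ratios scaling, with only the groups compared, without moderated variances and with limma's own fold change. Without moderated variances it was 1 for sgCbfb in Phase 1 cells and 1 for sgCbfb from LP to Phase 1. Without a fold threshold, Exp2 gave 9 with sgCbfb, 4 with sgCTCF and 3 with sgMed12 against sgCont, 6 for sgMed12 against sgCTCF and 7 for sgMed12 against sgCbfb. The interaction has no such alternative. With single libraries left out the number ran from 1 to 2 for sgCbfb from LP to Phase 1, from 0 to 1 for sgCTCF and for sgMed12 against sgCont, and from 1 to 3 for sgMed12 against sgCTCF. Of the uncalled differences that changed sign, *Il6ra* in the interaction was 0.162 with a pseudocount of 5, *Il7r* in the interaction was -0.0543 with median-of-ratios scaling, -0.03995 with TMM scaling, -0.04598 with edgeR and -0.0604 with DESeq2, and *Flt3* between sgCTCF and sgCbfb was 0.00104 with TMM scaling. With single libraries left out the ranges were -0.2553 to 0.1102 for *Flt3* with sgCbfb in Exp1 LPs, -0.04833 to 0.177 for *Il2rg* and -1.013 to 0.4532 for *Il2rb* from LP to Phase 1 in sgCbfb cells, -0.09666 to 0.1408 for *Il7r* and -0.5389 to 0.3396 for *Il6ra* in the interaction, -0.2343 to 0.01189 for *Il6st* with sgCTCF, -0.05478 to 0.01727 for *Flt3* between sgCTCF and sgCbfb and -0.3261 to 0.2651 for *Il2rg* between sgMed12 and sgCbfb. The cause of these changes was not tested. The fits with a replicate block gave the receptor counts of the fits without it in all 11 comparisons (3, 4, 4, 2, 3, 4, 0, 1, 7, 2 and 4). Correlations of same-numbered libraries' deviations ran from -0.04 to 0.139 in Exp1 (median 0.033) and from -0.118 to 0.185 in Exp2 (median 0.0665). Those of different-numbered libraries ran from -0.13 to 0.068 (median -0.0135) and from -0.189 to 0.131 (median -0.03). The medians were higher for the same numbers, and the ranges overlapped. Whether the numbers pair the libraries was not tested.

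Over all genes, the number called with sgMed12 was 136, and 54 without the filter, 57 with only the groups compared, 21 without moderated variances, 68 at a mean over 20 CPM and 822 without a fold threshold. For sgCbfb from LP to Phase 1 it was 158, and 245, 105 and 267 with only the groups compared, without moderated variances and without a fold threshold. Without moderated variances it was 147 in place of 224 for sgCbfb in Exp1 LPs and 62 in place of 157 for the interaction. A mean over 20 CPM gave 198 in place of 320 for sgCTCF, 596 in place of 905 for sgCTCF against sgCbfb, 312 in place of 529 for sgMed12 against sgCTCF and 387 in place of 590 for sgMed12 against sgCbfb. Without a fold threshold these 4 were 1084, 2260, 2105 and 1794, sgCbfb in Exp2 1272 in place of 570, and sgCont from LP to Phase 1 726 in place of 449. Depth limits *Il2ra* in sgCont LPs, *Il2rb* in sgCbfb cells and *Il6ra*, which rest on few reads.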
